A study of Caenorhabditis elegans with 33 samples.

Results

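The effect of auxin on its own was examined in *cec-4* larvae, which carry neither a degron-tagged protein nor TIR1. The comparison was chosen by the sample labels and holds 6 of the 33 libraries and 2 of the 11 conditions of the series, namely 3 libraries of auxin-treated and 3 of untreated *cec-4* larvae. The wider study depleted DPY-27, a subunit of the condensin that represses the X chromosomes of *C. elegans* hermaphrodites, with the auxin-inducible degradation system, and used auxin-treated *cec-4* larvae as a control for the treatment. In every condition, poly(A) RNA was prepared from whole L3 hermaphrodites. The treated group carried *cec-4(ok3124)* and was placed as synchronized L1 larvae on plates with 4 mM auxin, whereas the untreated group had the same genotype and was grown on plates without it. Both groups were kept at 20 °C for 24 hours on high-growth medium with *E. coli* NA22 as food. A second pair of conditions without TIR1, auxin-treated and untreated *dpy-27::AID* larvae, shares no library with the first and serves here for comparison. In that strain DPY-27 bears a degron, but no TIR1 is present to use it. In *TIR1; dpy-27::AID* larvae, and in those that also lack CEC-4 (*TIR1; dpy-27::AID; cec-4*), TIR1 is driven by the *eft-3* promoter and auxin also removes DPY-27, so that auxin and the loss of DPY-27 cannot be told apart. Wild type (N2), *dpy-21* and *dpy-21; cec-4* larvae were measured only without auxin. The labels do not say whether replicates came from separate cultures, so the tests measure the spread between libraries, which may be technical.

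Auxin, indole-3-acetic acid, is a plant hormone that joins the plant F-box protein TIR1 to a degron and thereby marks the tagged protein for the proteasome. Worms have no TIR1 of their own, so in a strain without TIR1 auxin is a foreign small molecule. Animals handle such molecules in phases: cytochrome P450 enzymes and dehydrogenases oxidise them, UDP-glucuronosyltransferases and glutathione S-transferases attach sugars or glutathione, and ABC transporters export them. Glutathione is made from cysteine, which the transsulfuration pathway derives from homocysteine by way of cystathionine. CEC-4 is a chromodomain protein that holds chromatin with methylated H3K9 at the nuclear periphery.

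The 6 *cec-4* libraries were estimated to hold between 15.8 and 24.5 M fragments each, and all 33 libraries between 12.7 and 25 M. *cec-4* mRNA was listed at 0, 0 and 5.24 FPKM in auxin-treated and at 0 in all 3 untreated *cec-4* libraries, against 18.1, 5.34 and 19.6 FPKM in wild type. The gene was thus listed at 0 in 5 of the 6 libraries, and auxin-treated replicate 3 held a level near that of the lowest wild type library. Elsewhere *cec-4* mRNA reached 8.99 FPKM in untreated *TIR1; dpy-27::AID; cec-4* larvae and was as low as 0 in untreated *dpy-21* larvae. Its level therefore separates the genotypes only in part. *dpy-27*, the gene targeted elsewhere in the study, lay at 34.9, 30.1 and 35.5 FPKM in auxin-treated and at 37.3, 28.3 and 27.5 FPKM in untreated *cec-4* larvae. The X-linked expression score of a library, its median centred log2 value over X-linked genes minus that over autosomal genes, ranged from -0.289 to -0.271 in auxin-treated and from -0.368 to -0.325 in untreated *cec-4* larvae. The groups did not overlap, with a difference of 0.0643 (two-sided exact permutation test, p = 0.1, the smallest that 3 against 3 libraries can give).

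Some *cec-4* libraries stood apart. Untreated replicate 1 listed 1476 of the tested genes at 0, while the other 5 listed 667 to 932, and its correlations with the others, 0.777 to 0.800, were below all the rest. The 31 major sperm protein genes, which are transcribed during spermatogenesis, summed to 2.52, 15.2 and 0.511 FPKM in auxin-treated larvae, and to 385, 0 and 0.631 FPKM in untreated larvae. Untreated replicate 1 thus held sperm gene transcripts that were nearly absent from the other 5 libraries. The 40 molting and precuticle genes, which rise and fall with each larval molt, summed to 7000, 15450 and 15010 FPKM in auxin-treated and to 11590, 7687 and 13110 FPKM in untreated larvae, so that auxin-treated replicate 1 and untreated replicate 2 were the low libraries. Auxin-treated replicates 2 and 3 were more alike than any other pair, with an SD of 0.396 for their log2 ratio over genes with a mean of at least 20 FPKM, against 0.532 to 0.785 in the other pairs. In whole larvae, fewer cells of a type and less RNA per cell cannot be told apart.

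Few genes differed beyond the spread between libraries in auxin-treated *cec-4* larvae. Of the 13309 genes whose FPKM averaged 1 or more across the 33 libraries, 1 gene, *cth-1*, passed limma's test at an adjusted p-value under 0.05 (0.00751% of the genes tested), and it rose. At an unadjusted p-value under 0.05, for which the words nominally higher and nominally lower are used below, 354 genes were higher (2.66%) and 218 were lower (1.64%). These 572 genes make up 4.3% of all tested genes, whereas a threshold of 0.05 lets through 5% of genes when no gene differs. The share of nominally higher genes was 2.35% without untreated replicate 1, 4.25% without untreated replicate 3 and 1.77% without treated replicate 2, and lay between these last values when any other of the 6 libraries was left out. The 3 treated libraries all lay above the 3 untreated libraries for 681 genes (5.12%) and all below them for 589 genes (4.43%). The median log2 fold change of all tested genes was 0.03.

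**Figure D1:**
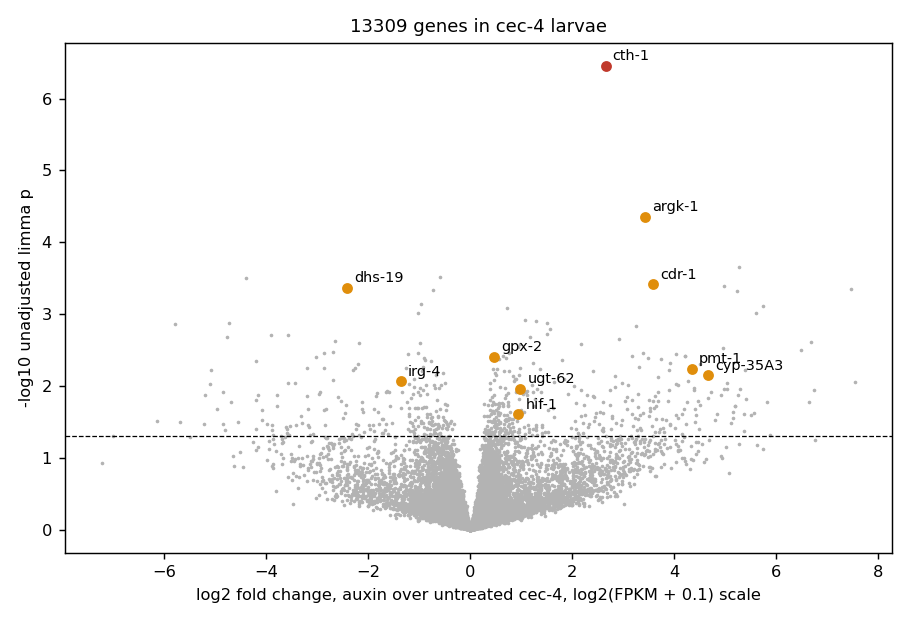
Log2 fold change of auxin-treated over untreated *cec-4* larvae on the log2(FPKM + 0.1) scale (horizontal axis) against -log10 of the unadjusted limma p-value (vertical axis) for 13309 genes, with the dashed line at a p-value of 0.05 and 10 genes of the text marked. *cth-1* (red) is the gene that passed the adjusted test, at a log2 fold change of 2.65, and *argk-1* is the marked gene next to it in height.

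*cth-1* encodes a cystathionine gamma-lyase, which releases cysteine in the last step of transsulfuration. Its transcript stood at 72.6, 209.1 and 198.0 FPKM in auxin-treated *cec-4* larvae, against 20.5, 41.5 and 14.1 FPKM in untreated *cec-4* larvae. Every treated library was above every untreated one, and treated replicates 2 and 3 were the highest of all 33 libraries. The log2 fold change was 2.65 ± 0.39 (SE, n = 3 and 3; limma, adjusted p = 0.00466). In the pair of libraries with low molting genes, auxin-treated replicate 1 and untreated replicate 2, the values were 72.6 and 41.5 FPKM. Fitting only the libraries compared gave an adjusted p of 0.928, and the call was also lost, with adjusted p-values from 0.0627 to 0.119, when treated replicate 2, treated replicate 3, untreated replicate 1 or untreated replicate 3 was left out. The log2 fold change stayed between 2.303 and 3.147 in all 17 alternatives.

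*argk-1*, which encodes an arginine kinase that stores phosphate-bond energy as phosphoarginine, had the second smallest p-value of all tested genes. Its transcript stood at 64.2, 352.7 and 357.2 FPKM in auxin-treated *cec-4* larvae, against 13.4, 45.04 and 10.5 FPKM in untreated *cec-4* larvae. The groups did not overlap, but the log2 fold change of 3.43 ± 0.70 (SE) did not pass the test in *cec-4* larvae alone (limma, adjusted p = 0.294). In the pair of libraries with low molting genes, the values were 64.2 FPKM with auxin and 45.04 FPKM without it.

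*cth-1* and *argk-1* are neighbours. In the WBcel235 annotation *cth-1* (WBGene00009048) spans 16100680 to 16102750 on chromosome V and *argk-1* (WBGene00009706) spans 16103894 to 16105952. Both lie on the forward strand, with 1143 bases between them. No gene with deposited FPKM values lies between them, and annotated genes without such values were not searched. Of the other 5 protein-coding genes with deposited values within 10000 bases, 2 passed the filter on FPKM. *str-7*, which encodes a predicted chemoreceptor, was listed at 0.911, 4.02 and 4.29 FPKM with auxin and at 0, 6.78 and 0 FPKM without it. F22B8.7 lay at 18.9, 36.3 and 68.6 FPKM with auxin and at 26.6, 18.5 and 32.5 FPKM without it. In both of these genes the groups overlapped. The log2 fold change of *str-7*, a gene of low FPKM, was 2.685 in *cec-4* larvae (limma, unadjusted p = 0.102) and 3.345 in *dpy-27::AID* larvae. That of F22B8.7 was 0.52 in *cec-4* larvae (limma, unadjusted p = 0.686) and -0.95 in *dpy-27::AID* larvae.

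The untreated levels of both genes were then set side by side across strains, with no test. The FPKM sums of wild type replicates 1 and 2 were 2.555 and 2.022 M, against 1.413 to 1.671 M in the other libraries. The levels below are as deposited, so those of wild type replicates 1 and 2 may not share a scale with the rest. *cth-1* lay between 14.1 and 41.5 FPKM in untreated *cec-4*, between 25.2 and 36.7 FPKM in untreated *dpy-27::AID*, and between 21.8 and 57.3 FPKM in untreated *TIR1; dpy-27::AID* larvae. In untreated *TIR1; dpy-27::AID; cec-4* larvae it lay at 43.4, 46.4 and 67.6 FPKM. In the 9 untreated libraries of the strains that were never treated, wild type, *dpy-21* and *dpy-21; cec-4*, it lay between 56.9 and 108.5 FPKM, a range that the untreated libraries of both strains with TIR1 reached into. Wild type larvae without auxin, at 82.2, 60.2 and 108.5 FPKM, thus overlapped auxin-treated *cec-4* larvae, and *cec-4* replicates 1 and 3 without auxin were the lowest 2 of the 33 libraries. *argk-1* lay at 47.9, 48.5 and 43.8 FPKM in untreated wild type, near the highest untreated *cec-4* library, which had 45.04 FPKM, and above the other two. It lay between 61.3 and 111.6 FPKM in untreated *dpy-21*, between 74.0 and 94.8 FPKM in untreated *dpy-21; cec-4* and between 23.8 and 71.0 FPKM in untreated *TIR1; dpy-27::AID; cec-4* larvae. In untreated *TIR1; dpy-27::AID* larvae it lay between 3.32 and 27.5 FPKM. Whether the strains with and without an auxin condition were grown or sequenced together is not given in the labels, and strain and any such batch cannot be told apart.

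**Figure D2:**
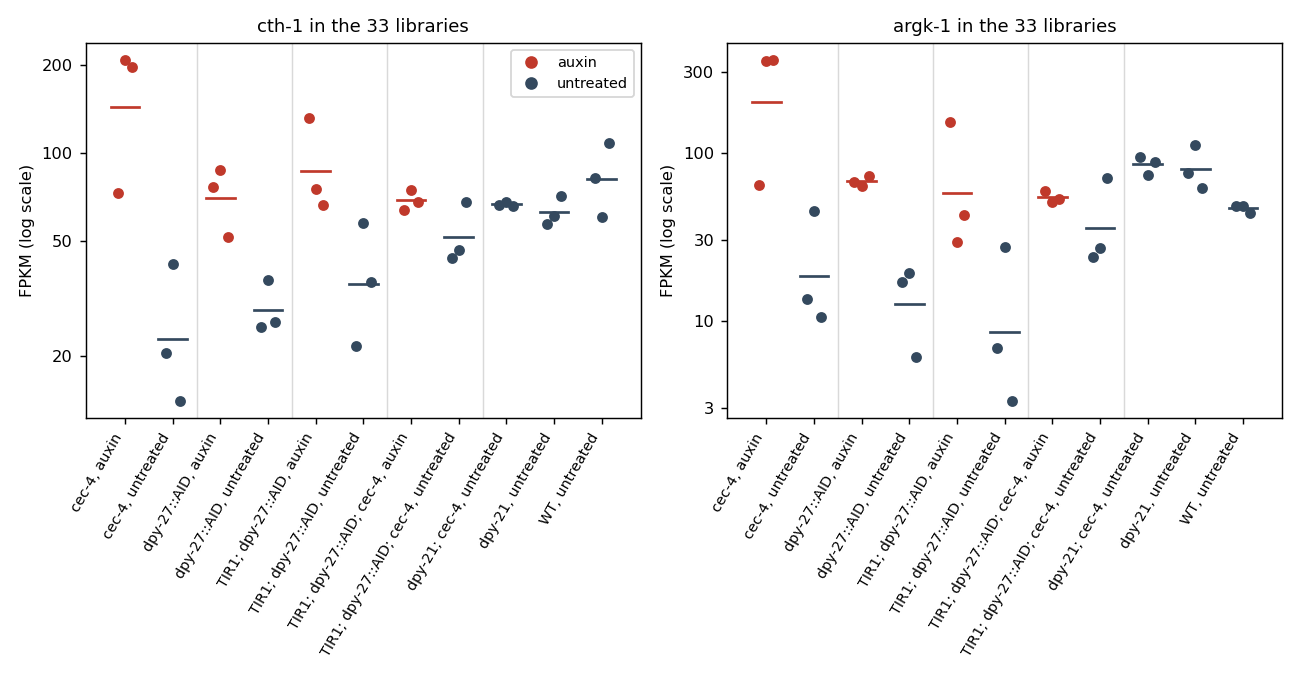
FPKM of *cth-1* (left) and *argk-1* (right) in each of the 33 libraries on a log axis, with auxin-treated libraries in red, untreated ones in dark blue and a bar at the geometric mean of the 3 libraries of each condition. Auxin-treated *cec-4* replicates 2 and 3 are the highest points of both panels. As deposited, untreated wild type (60.2 to 108.5 FPKM for *cth-1*) lies above untreated *cec-4* (14.1 to 41.5 FPKM). Wild type replicates 1 and 2 have higher FPKM sums than all other libraries and may not share their scale.

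By the labels, the same treatment in *dpy-27::AID* larvae without TIR1 gave a second view of auxin alone. In limma's test 0 of 13309 genes passed at an adjusted p-value under 0.05 (0%), and 673 had an unadjusted p-value under 0.05, with 435 higher (3.27%) and 238 lower (1.79%). *cth-1* stood at 76.5, 87.3 and 51.5 FPKM in auxin-treated and at 25.2, 36.7 and 26.3 FPKM in untreated *dpy-27::AID* larvae, a log2 fold change of 1.27 (adjusted p = 0.889). *argk-1* stood at 66.8, 63.6 and 72.9 FPKM with auxin and at 16.9, 19.2 and 6.07 FPKM without it, a log2 fold change of 2.42 (adjusted p = 0.889). Treated and untreated libraries did not overlap for either gene. Auxin-treated *dpy-27::AID* replicate 3 stood apart from its label, since its X-linked expression score was 0.428 and the scores of the other 5 libraries of the strain lay between -0.391 and -0.251. The score lay within those of auxin-treated *TIR1; dpy-27::AID* larvae, 0.393, 0.456 and 0.465, in which DPY-27 is depleted. Whether this library shows auxin alone was not tested. Auxin-treated *dpy-27::AID* replicate 3 had the lowest *cth-1* level of the treated *dpy-27::AID* libraries, 51.5 FPKM, which was still above the untreated ones. Without it the log2 fold changes were 1.49 for *cth-1* and 2.37 for *argk-1*, and 0 genes passed.

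The average of the responses in *cec-4* and *dpy-27::AID* larvae rests on 6 treated and 6 untreated libraries. Limma called 2 genes (0.015%), *cth-1* with a log2 fold change of 1.96 (adjusted p = 0.00218) and *argk-1* with a log2 fold change of 2.93 (adjusted p = 0.0216), and both rose. *cth-1* passed in all 12 fits that left out 1 of these libraries. *argk-1* did not pass in 8 of them, with adjusted p-values between 0.0710 and 0.144: when *cec-4* treated replicate 2 or 3 or untreated replicate 1 or 3, any of the 3 treated *dpy-27::AID* libraries or untreated *dpy-27::AID* replicate 3 was left out. Neither gene passed when only the libraries compared were fitted (adjusted p = 0.567 for both). The difference between the responses of the 2 strains was also tested, and 0 genes passed limma's test (0%), with 546 at an unadjusted p-value under 0.05. For *cth-1* the response was larger by 1.38 on the log2 scale in *cec-4* larvae (adjusted p = 1).

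Across the 13309 genes, the log2 fold changes in the 2 strains showed no linear relation, with a Pearson correlation of -0.000625 and a Spearman correlation of 0.0247 over genes, which are not independent replicates. Of the nominally higher genes, 11 were shared. They make up 3.11% of those in *cec-4* larvae, while 3.27% of all tested genes were nominally higher in *dpy-27::AID* larvae, and 2.53% of those in *dpy-27::AID* larvae, while 2.66% of all tested genes were nominally higher in *cec-4* larvae. Of the nominally lower genes, 5 were shared, which is 2.29% of those in *cec-4* larvae, beside 1.79% of all tested genes in *dpy-27::AID* larvae. The shared genes were thus about as frequent as among all tested genes, and their values are given as a description. A further 17 genes were nominally different in opposite directions, 9 higher and 8 lower in *cec-4*. Beside *cth-1* and *argk-1*, the shared higher genes included *atg-18*, which encodes a WD-repeat protein of autophagy, *capa-1*, a neuropeptide gene, and the adjacent genes F45D3.3 and F45D3.4. F45D3.3 stood at 212.2, 273.5 and 262.6 FPKM in auxin-treated and at 181.2, 112.7 and 153.9 FPKM in untreated *cec-4* larvae, and at 183.7, 211.4 and 272.6 FPKM in auxin-treated and 152.5, 134.6 and 137.4 FPKM in untreated *dpy-27::AID* larvae. In both strains the treated libraries lay above the untreated ones, with log2 fold changes of 0.76 in *cec-4* and 0.64 in *dpy-27::AID* larvae. *set-17*, which encodes a histone methyltransferase, was among the shared lower genes, at 14.5, 4.19 and 17.3 FPKM in auxin-treated and 30.3, 17.8 and 24.6 FPKM in untreated *cec-4* larvae. These shared genes were named after their values had been seen.

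**Figure D3:**
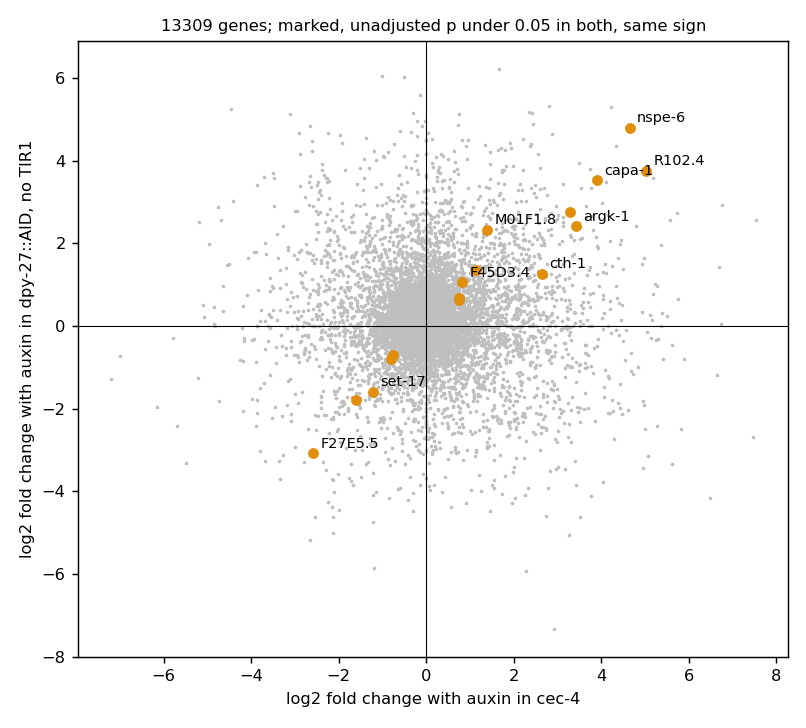
Log2 fold change with auxin in *cec-4* larvae (horizontal axis) against that in *dpy-27::AID* larvae without TIR1 (vertical axis) for 13309 genes, with the 16 genes that were nominally different in the same direction in both strains marked in orange. The cloud has no slope (Pearson correlation -0.000625), and *cth-1* and *argk-1* lie at the upper right.

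In the strains with TIR1, limma called 55 genes in *TIR1; dpy-27::AID* larvae (0.413%) and 852 genes in *TIR1; dpy-27::AID; cec-4* larvae (6.4%), where auxin also depletes DPY-27. *cth-1* stood at 131.4, 75.4 and 66.3 FPKM in auxin-treated and 21.8, 57.3 and 36.1 FPKM in untreated *TIR1; dpy-27::AID* larvae, a log2 fold change of 1.29 (adjusted p = 0.135). In *TIR1; dpy-27::AID; cec-4* larvae it stood at 63.7, 74.8 and 67.9 FPKM with auxin and at 43.4, 46.4 and 67.6 FPKM without it, where the groups overlapped and the log2 fold change was 0.42 (adjusted p = 0.602). *argk-1* had log2 fold changes of 2.73 (adjusted p = 0.0728) and 0.60 (adjusted p = 0.686) in the same order of strains. The call for *cth-1* was therefore made in 1 of the 4 strains, and the log2 fold change was above 0 in all 4.

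The classes of metabolic and stress genes were then examined in *cec-4* larvae, each beside the 2.66% nominally higher and 1.64% nominally lower genes of the whole set. A class median is followed in parentheses by its lowest and highest value when each of the 6 *cec-4* libraries was left out in turn. The median changed sign in 16 of 40 classes when 1 library was left out, in 8 of them without untreated replicate 1, and kept its sign in the other 24. In the transsulfuration class, 6 of 8 genes were tested, 2 were nominally higher (*cth-1* and *cysl-3*), none was lower and the median log2 fold change was 0.32 (0.14 without untreated replicate 1 to 0.68 without untreated replicate 3). The nominally higher genes numbered 1 without treated replicate 2, untreated replicate 1 or untreated replicate 2, and 3 without untreated replicate 3. *cth-2*, which also encodes a cystathionine gamma-lyase, lay at 255.7, 193.9 and 179.7 FPKM with auxin and 143.5, 221.2 and 204.9 FPKM without it, and its log2 fold change was 0.15. *cbs-1*, a cystathionine beta-synthase acting just before *cth-1*, lay at 36.1, 19.9 and 32.9 FPKM with auxin and 22.4, 32.4 and 22.2 FPKM without it. The groups of these genes overlapped. Among the cysteine synthase-like genes, *cysl-3* lay at 69.3, 88.4 and 79.7 FPKM with auxin and 46.7, 33.4 and 81.4 FPKM without it, a log2 fold change of 0.65. *cysl-1*, whose product acts on the oxygen sensor EGL-9, lay at 152.3, 119.9 and 115.8 FPKM with auxin and 100.8, 98.0 and 129.2 FPKM without it. *cysl-2* lay at 110.3, 190.4 and 188.3 FPKM with auxin and at 57.2, 82.4 and 372.1 FPKM without it, where untreated replicate 3 was the highest of the 6. *cbs-2* and *cysl-4* did not reach the filter and were at or near 0 in every *cec-4* library.

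Neighbouring pathways of sulfur and one-carbon metabolism gave few nominal differences. In the methionine cycle, 2 of 10 tested genes were nominally higher, 4 had treated libraries that lay entirely above the untreated ones (5.12% of all tested genes did), and the median was 0.21 (0.19 to 0.32). Without untreated replicate 1 none was nominally higher, and 1 was without treated replicate 2 or 3 or untreated replicate 2. *ahcy-1*, which encodes the enzyme that cleaves S-adenosylhomocysteine to homocysteine, lay at 3381, 4063 and 3994 FPKM with auxin and 2225, 2080 and 2758 FPKM without it, a log2 fold change of 0.70 ± 0.32 (SE; adjusted p = 1). *pmt-1*, a phosphoethanolamine methyltransferase of phosphatidylcholine synthesis, lay at 7.67, 30.2 and 27.6 FPKM with auxin and at 0, 1.61 and 4.45 FPKM without it (adjusted p = 0.989). Both genes lay higher in every treated library. In cysteine and sulfide breakdown and glutathione synthesis, 2 of 12 were nominally higher, with a median of 0.24 (0.07 without untreated replicate 1 to 0.32). Without treated replicate 3, untreated replicate 2 or untreated replicate 3 none was nominally higher, and 1 was without treated replicate 2 or untreated replicate 1. *gcs-1*, which encodes the first enzyme of glutathione synthesis, lay at 59.6, 65.7 and 63.1 FPKM with auxin and 53.6, 49.2 and 50.7 FPKM without it, a log2 fold change of 0.29 ± 0.14 (SE). *cdo-1*, the cysteine dioxygenase, lay at 61.1, 69.4 and 82.3 FPKM with auxin and 39.9, 89.9 and 108.5 FPKM without it, where the groups overlapped. In propionate breakdown none of 14 genes was nominally different, and the median was 0.12 (0.06 to 0.25). *acdh-1*, the acyl-CoA dehydrogenase of the shunt that worms use when vitamin B12 is low, lay at 1329, 1763 and 1726 FPKM with auxin and at 1405, 585.6 and 1357 FPKM without it.

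Genes of xenobiotic handling were examined next, because auxin is foreign to worms. Of 52 tested cytochrome P450 genes (74 in all), 5 were nominally higher and none was lower, with a median of 0.22 (0.06 without treated replicate 3 to 0.32). The nominally higher genes numbered 2 without treated replicate 2, and 3 without treated replicate 3, untreated replicate 2 or untreated replicate 3. Of 39 that were never listed at 0 in the 6 libraries, 2 were nominally higher. The nominally higher genes were led by the *cyp-35A* genes, which respond to many foreign compounds and are close paralogs, so that reads may be divided uncertainly between them. *cyp-35A3* lay at 1.92, 47.9 and 59.8 FPKM with auxin and at 23.7, 0.0479 and 0 FPKM without it. *cyp-35A2* lay at 17.2, 125.3 and 116.3 FPKM with auxin and at 74.6, 17.3 and 3.08 FPKM without it, and *cyp-35A4* lay at 0.571, 8.77 and 13.3 FPKM with auxin and at 1.02, 0 and 0 FPKM without it. In these genes treated replicate 1 was low and untreated replicate 1 was the highest untreated library, and the groups overlapped. *cyp-35C1* lay at 5.14, 48.5 and 44.2 FPKM with auxin and at 27.6, 6.09 and 4.96 FPKM without it. Limma called *cyp-35A3* (adjusted p = 0.00527) and *cyp-35C1* (adjusted p = 0.0425) when both replicates numbered 1 were left out. This alternative was chosen after seeing the data, and it removes the libraries through which the groups of both genes overlapped. The calls are therefore a description and not a test. In *dpy-27::AID* larvae *cyp-35A3* lay at 1.58, 1.39 and 8.41 FPKM with auxin and at 6.65, 3.17 and 9.42 FPKM without it. The difference between the strains did not pass the test (adjusted p = 1).

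Conjugating enzymes and transporters gave similar counts. Of 57 tested UDP-glucuronosyltransferases, 4 were nominally higher and none lower, with a median of 0.19 (0.05 to 0.26). *ugt-62* lay at 101.2, 173.2 and 174.3 FPKM with auxin and at 82.3, 78.0 and 61.4 FPKM without it, a log2 fold change of 0.98 ± 0.36 (SE; adjusted p = 1). Its treated libraries all lay above the untreated ones. Of 36 ABC transporters 2 were nominally higher and none lower, with a median of 0.19 (0.13 to 0.30), and 1 to 4 were nominally higher with 1 library left out. *pgp-1*, a P-glycoprotein, lay at 6.51, 63.8 and 63.3 FPKM with auxin and at 8.24, 6.43 and 4.46 FPKM without it, so that treated replicate 1 lay with the untreated libraries. Of 43 glutathione S-transferases 1 was nominally higher (*gst-29*, at 2.21, 1.398 and 5.53 FPKM with auxin and 0, 0 and 2.54 FPKM without it) and none lower, with a median of 0.02 (0.02 to 0.13). Of 27 short-chain dehydrogenases none was nominally higher and 1 was lower, with a median of 0.03 (-0.04 to 0.14), and 3 were higher without treated replicate 1 or untreated replicate 3. That gene, *dhs-19*, lay at 16.38, 9.86 and 2.07 FPKM with auxin and at 24.2, 32.1 and 68.1 FPKM without it, a log2 fold change of -2.41 ± 0.59 (SE; adjusted p = 0.579), and all treated libraries lay below the untreated ones. Carboxylesterase-like genes gave 1 nominally higher gene of 29, *cest-25*, and a median of -0.01 (-0.13 to 0.13). In the tryptophan and kynurenine pathway, which breaks down the indole amino acid and was included with the aryl hydrocarbon receptor genes, none of 13 genes was nominally different, and the median was 0.18 (-0.05 without untreated replicate 1 to 0.32), and also below 0 without treated replicate 2, at -0.02.

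**Figure D4:**
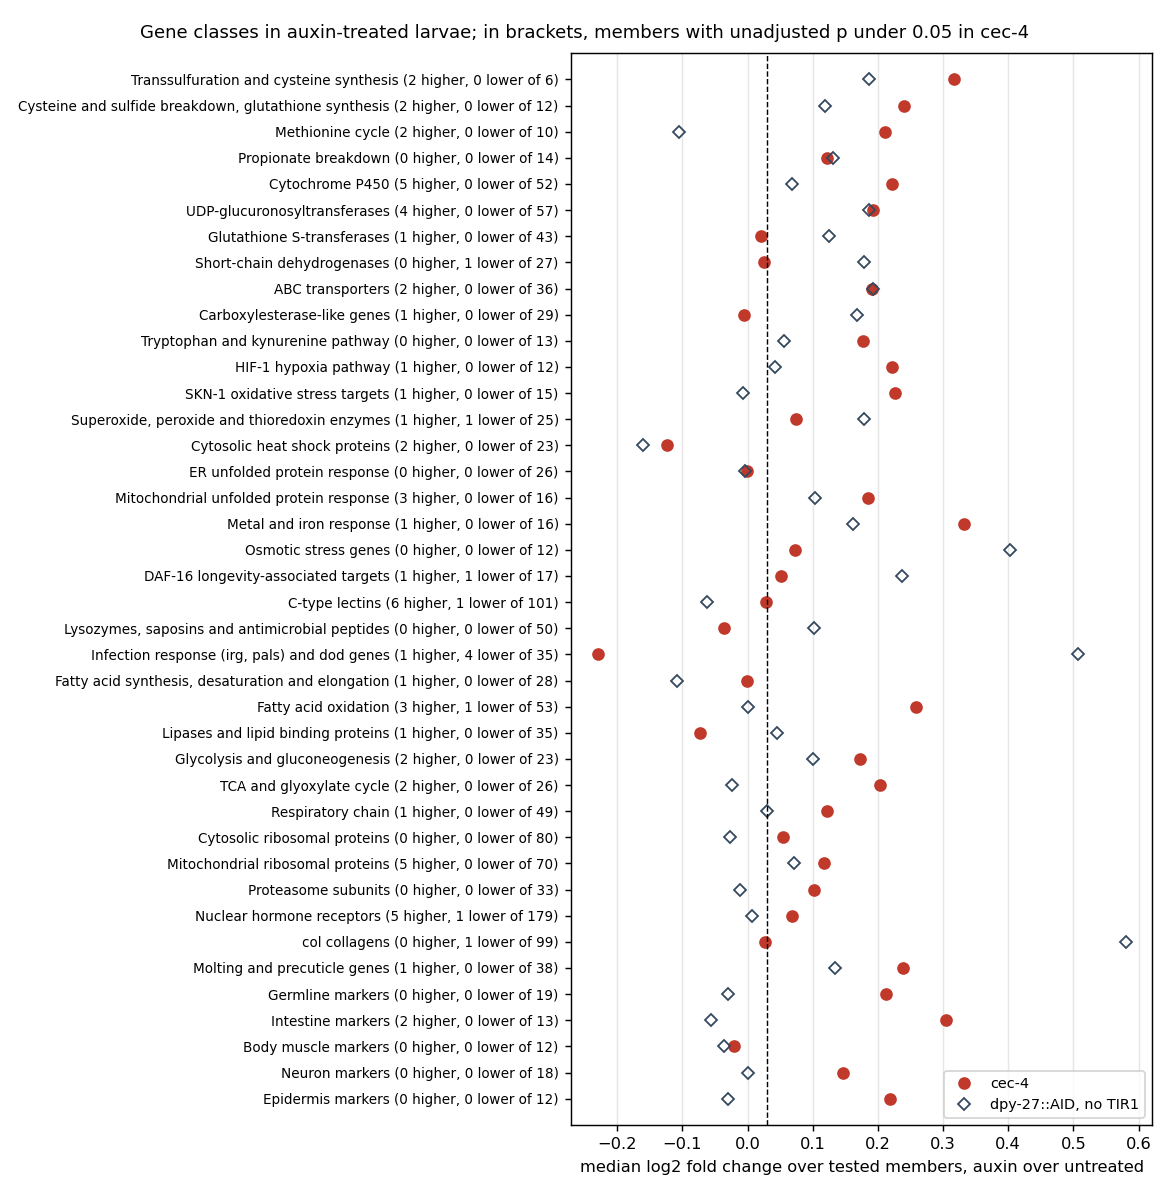
Median log2 fold change of the tested members of 40 gene classes, auxin-treated over untreated, in *cec-4* larvae (red circles) and in *dpy-27::AID* larvae without TIR1 (open diamonds), with the dashed line at the median of all tested genes in *cec-4* larvae (0.03). The medians in *cec-4* larvae span -0.23 (infection response and *dod* genes) to 0.33 (metal and iron response), and 16 of these 40 medians changed sign when 1 library was left out. Those of *dpy-27::AID* larvae reach 0.58 (*col* collagens) and include auxin-treated replicate 3, whose X-linked score stood apart.

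Stress response genes gave no class with more than 3 nominally different members. Among 12 genes of the HIF-1 hypoxia pathway, 1 was nominally higher, *hif-1* itself, and the median was 0.22 (-0.17 without untreated replicate 1 to 0.46 without untreated replicate 3). Without untreated replicate 1 or treated replicate 1 none was nominally higher. *hif-1*, the hypoxia-inducible transcription factor, lay at 70.6, 69.3 and 67.0 FPKM with auxin and at 14.03, 69.4 and 47.1 FPKM without it. The class varied more within the untreated group than between the groups, since its median centred log2 level was 0.12, 0.10 and 0.02 in the treated libraries and -1.08, 0.09 and 0.75 in the untreated ones. *nhr-57*, a gene that HIF-1 is known to raise, lay at 10.02, 12.26 and 9.42 FPKM with auxin and at 4.49, 12.57 and 23.9 FPKM without it. *fmo-2*, a flavin-containing monooxygenase, lay at 54.3, 5.35 and 6.39 FPKM with auxin and at 3.44, 23.5 and 22.7 FPKM without it.

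Of 15 genes of the SKN-1 oxidative stress class, which includes *skn-1* itself, 1 was nominally higher (*gcs-1*), with a median of 0.23 (0.17 to 0.33). None was nominally higher without treated replicate 2 or 3 or untreated replicate 2 or 3, and 3 were without treated replicate 1. Of 25 superoxide, peroxide and thioredoxin enzymes 1 was higher and 1 lower, with a median of 0.07 (0.02 to 0.18). *gpx-2*, a glutathione peroxidase, lay at 137.8, 157.5 and 158.3 FPKM with auxin and 87.8, 123.4 and 118.7 FPKM without it, a log2 fold change of 0.47 ± 0.15 (SE; adjusted p = 0.984). *sod-3*, a mitochondrial superoxide dismutase and target of DAF-16, lay at 6.33, 4.55 and 0.388 FPKM with auxin and at 8.43, 2.46 and 21.1 FPKM without it. The treated libraries of *gpx-2* lay above the untreated ones, and those of *sod-3* overlapped them. Among 17 genes of the DAF-16 class, which holds *daf-16* and targets of its product, *daf-16* itself was nominally higher and *sod-3* lower. The median was 0.05 (0.02 to 0.19). *daf-16* lay at 10.37, 7.59 and 23.77 FPKM with auxin and at 0, 8.86 and 7.22 FPKM without it, where the groups overlapped. None of the class was nominally higher without untreated replicate 1 or treated replicate 3.

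Of 23 cytosolic heat shock protein genes 2 were nominally higher and the median was -0.12 (-0.30 without untreated replicate 1 to 0.05 without untreated replicate 2). Without untreated replicate 1, 2 were nominally higher and 3 lower. F44E5.4, an inducible member of the HSP70 family with a near-identical neighbour, lay at 66.8, 179.7 and 106.5 FPKM with auxin and at 47.8, 24.9 and 58.4 FPKM without it. Among 26 genes of the ER unfolded protein response none was nominally different, and the median was 0.00 (-0.09 to 0.03). Among 16 genes of the mitochondrial unfolded protein response 3 were nominally higher, with a median of 0.19 (0.04 without untreated replicate 1 to 0.26). None was nominally higher without untreated replicate 1, and 1 was without any 1 of the 3 treated libraries. The 3 genes were *ymel-1*, a mitochondrial protease with a log2 fold change of 0.30, and the P450 genes *cyp-14A1* and *cyp-14A4*, which also belong to the class above. Of 16 metal and iron response genes 1 was nominally higher, and the median was 0.33 (0.25 to 0.43), the highest of the 40 classes with at least 5 tested members when all libraries were used. The gene, *cdr-1*, is known for its induction by cadmium, and lay at 4.17, 8.44 and 9.93 FPKM with auxin and 0, 1.35 and 1.37 FPKM without it (log2 fold change 3.58 ± 0.87, SE; adjusted p = 0.579). Among 12 osmotic stress genes none was nominally different, and the median was 0.07 (-0.10 without untreated replicate 1 to 0.37 without untreated replicate 2).

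Immunity genes were examined as 3 classes. Of 35 tested infection response (*irg*, *pals*) and *dod* genes 1 was nominally higher and 4 were lower, with a median of -0.23 (-0.41 without untreated replicate 3 to -0.07 without treated replicate 1), the lowest of those 40 classes when all libraries were used. The counts were 2 higher and 2 lower without untreated replicate 1, 3 and 3 without untreated replicate 3, and 0 and 2 without treated replicate 2 or 3. *irg-4*, which is raised in worms exposed to pathogenic bacteria, lay at 54.3, 21.6 and 18.01 FPKM with auxin and at 63.7, 69.4 and 81.6 FPKM without it, a log2 fold change of -1.36 ± 0.48 (SE; adjusted p = 1). *dod-22* lay at 11.8, 3.84 and 4.14 FPKM with auxin and at 9.67, 31.4 and 30.1 FPKM without it. *pals-16* lay at 1.35, 1.41 and 3.81 FPKM with auxin and 14.4, 3.89 and 4.58 FPKM without it. Treated libraries lay below the untreated ones for *irg-4* and *pals-16* and overlapped them for *dod-22*. In *dpy-27::AID* larvae the class had a median of 0.51, against 0.02 for all tested genes, and *irg-4* lay at 78.4, 91.2 and 165.1 FPKM with auxin and at 47.7, 53.9 and 37.7 FPKM without it. These values include auxin-treated *dpy-27::AID* replicate 3, whose X-linked score stood apart and which had the 165.1 FPKM. The response of *irg-4* was thus lower by 2.56 on the log2 scale in *cec-4* than in *dpy-27::AID* larvae, and this difference did not pass the test (adjusted p = 0.960). Of 101 C-type lectin genes 6 were nominally higher and 1 was lower, with a median of 0.03 (-0.11 to 0.20), the higher ones numbering 3 without treated replicate 3 and 11 without untreated replicate 1, and of 50 lysozyme, saposin and antimicrobial peptide genes none was nominally different, with a median of -0.04 (-0.25 to 0.14). *clec-57* lay at 46.8, 47.8 and 55.3 FPKM with auxin and 16.7, 17.2 and 33.2 FPKM without it (log2 fold change 1.23 ± 0.40, SE; adjusted p = 0.989).

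In central metabolism the medians lay above that of all genes when all libraries were used, with few nominal differences. Of 26 genes of the TCA and glyoxylate cycle, 2 were nominally higher, none was lower, and 96.2% had a log2 fold change above 0, against 52.8% of all tested genes. These genes are not independent replicates. Their median centred log2 level was 0.112, 0.102 and 0.106 in the treated libraries and -0.421, -0.235 and 0.297 in the untreated ones. Untreated replicate 3 thus lay above every treated library. *pdha-1*, a subunit of pyruvate dehydrogenase, lay at 163.8, 210.0 and 208.8 FPKM with auxin and at 152.9, 106.4 and 137.9 FPKM without it, a log2 fold change of 0.56 ± 0.18 (SE; adjusted p = 0.984). *idh-1*, an isocitrate dehydrogenase, lay at 379.1, 301.4 and 393.6 FPKM with auxin and at 117.3, 257.8 and 256.1 FPKM without it. The treated libraries lay above the untreated ones for both. The median of the TCA class was 0.20 (0.06 without untreated replicate 1 to 0.44 without untreated replicate 3). It was 0.17 for 23 glycolysis and gluconeogenesis genes, of which 2 were nominally higher (-0.03 without untreated replicate 1 to 0.32 without untreated replicate 3), and 0.12 for 49 respiratory chain genes, of which 1 was nominally higher (0.02 to 0.31 without the same libraries). Without untreated replicate 3 the nominally higher genes numbered 10 in the TCA class, 4 in glycolysis and 8 in the respiratory chain. Without untreated replicate 1 they numbered 1, 1 and 0. *ldh-1*, lactate dehydrogenase, lay at 134.8, 209.7 and 181.9 FPKM with auxin and at 19.4, 164.7 and 145.2 FPKM without it, with untreated replicate 1 far below the other 5 libraries.

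Of 53 fatty acid oxidation genes 3 were nominally higher and 1 was lower, with a median of 0.26 (0.15 to 0.42), and 9 were nominally higher without untreated replicate 3 and 1 without treated replicate 2 or 3. *cpt-4*, a carnitine palmitoyltransferase that brings fatty acids to the mitochondrion, lay at 34.4, 144.1 and 143.0 FPKM with auxin and at 46.4, 22.9 and 37.4 FPKM without it. Only treated replicates 2 and 3 were high. *cpt-5*, of the same family, lay at 9.90, 8.28 and 9.67 FPKM with auxin and at 6.65, 2.56 and 4.996 FPKM without it, and these groups did not overlap. *acs-21*, an acyl-CoA synthetase, was nominally lower, with a log2 fold change of -0.72. Fatty acid synthesis, desaturation and elongation gave 1 nominally higher gene of 28, *acl-7*, and a median of 0.00 (-0.08 to 0.08), and lipases and lipid binding proteins gave 1 of 35, *far-5*, and a median of -0.07 (-0.11 to 0.09 without treated replicate 1). None of the 6 vitellogenin genes, which are made by adult hermaphrodites, reached the filter.

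**Figure D5:**
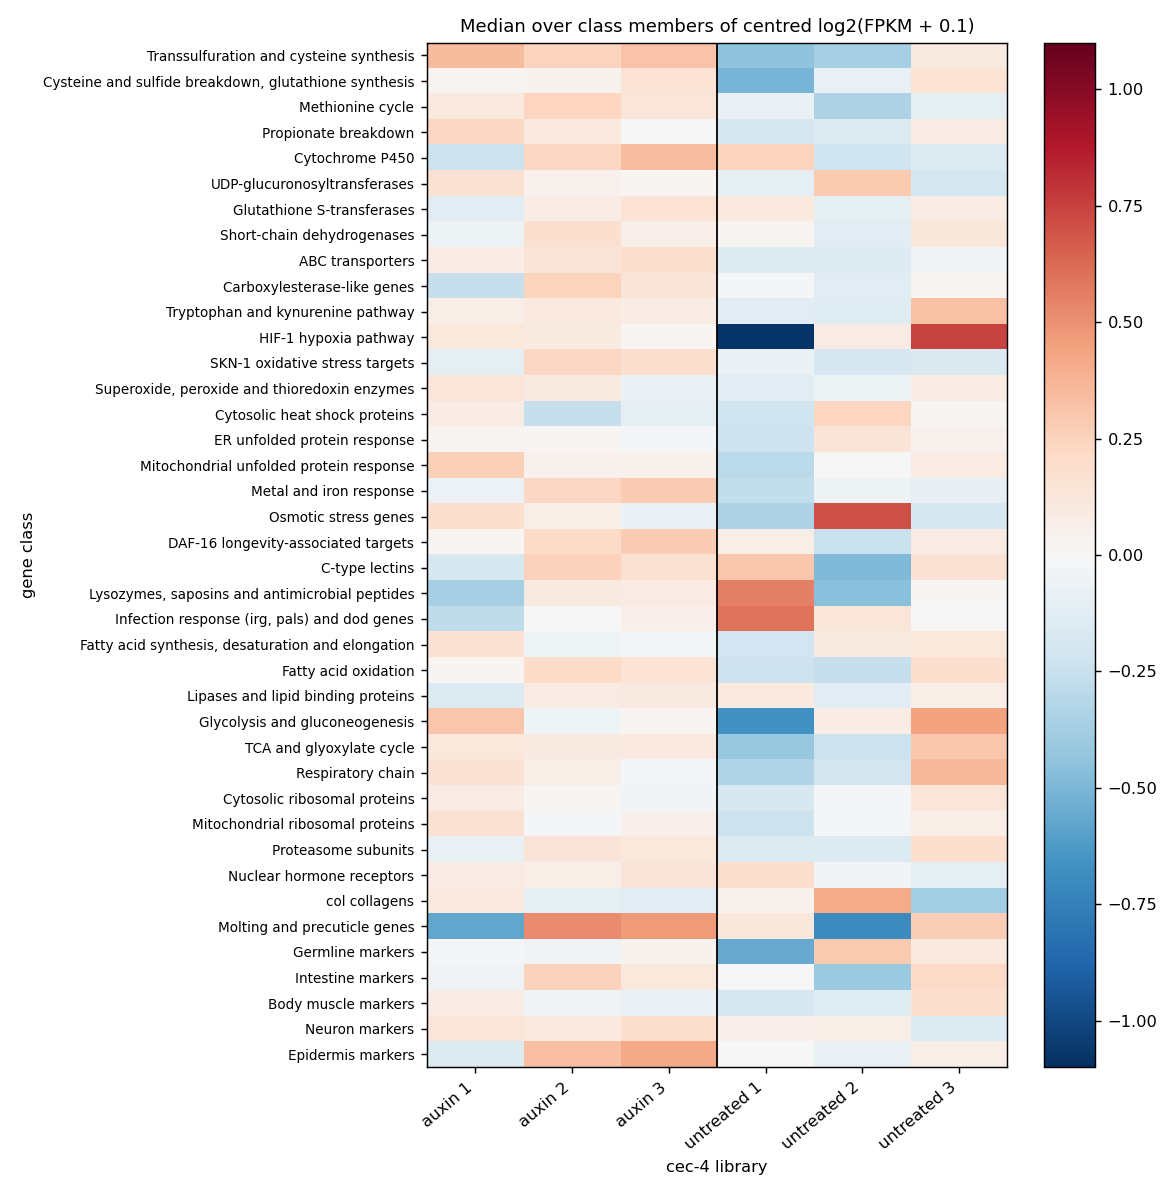
Median over the tested members of each of 40 gene classes of log2(FPKM + 0.1), centred on the mean of the 6 *cec-4* libraries for each gene (colour), for each auxin-treated (left) and untreated library (right of the line). The molting row shows auxin-treated replicate 1 (-0.57) and untreated replicate 2 (-0.70) as low, and the hypoxia row spans -1.08 to 0.75 within the untreated libraries.

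Genes of protein synthesis and turnover gave few nominal differences. None of 80 cytosolic ribosomal protein genes (median 0.05, and -0.03 without untreated replicate 1) and none of 33 proteasome subunit genes (median 0.10, between 0.00 and 0.21 with 1 library left out) was nominally different. Of 70 mitochondrial ribosomal protein genes 5 were nominally higher and none was lower, with a median of 0.12 (0.02 without untreated replicate 1 to 0.20). The nominally higher genes numbered 1 without untreated replicate 1, 2 without treated replicate 2 or 3 and 3 without untreated replicate 2. *mrps-30*, a subunit of the small mitochondrial ribosome, lay at 109.3, 114.3 and 99.5 FPKM with auxin and at 59.6, 97.1 and 75.6 FPKM without it.

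Among 179 nuclear hormone receptor genes 5 were nominally higher and 1 was lower, with a median of 0.07 (0.04 to 0.14), the higher ones numbering 3 without treated replicate 3 and 9 without untreated replicate 2. *nhr-259* lay at 13.4, 22.1 and 18.5 FPKM with auxin and was listed at 0 in all untreated *cec-4* libraries (adjusted p = 0.579). In *dpy-27::AID* larvae it lay at 0, 30.02 and 4.86 FPKM with auxin and at 19.71, 10.02 and 19.3 FPKM without it. There the log2 fold change was -2.675, and the difference between the strains did not pass limma's test (adjusted p = 0.904). Wild type, *dpy-21* and *dpy-21; cec-4* libraries all listed *nhr-259* at 0. *nhr-244* was listed at 0 in all 3 untreated *cec-4* libraries and lay at 2.18, 11.4 and 2.87 FPKM with auxin. A value of 0 in this table is not always an absence, because between 7 and 39 genes with a median of at least 20 FPKM over all libraries were listed at 0 in each *cec-4* library.

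Genes that follow the stage and the tissue makeup of the larvae were examined as a background to the classes above. Of 99 *col* collagen genes none was nominally higher and 1 was lower, *col-79*, with a median of 0.03 (-0.24 without untreated replicate 3 to 0.23 without untreated replicate 2). In *dpy-27::AID* larvae 15 of them were nominally higher with auxin, beside 3.27% of all tested genes in that strain, and the median was 0.58. Both values include auxin-treated *dpy-27::AID* replicate 3, whose X-linked score stood apart. Of 38 molting and precuticle genes 1 was nominally higher, *dpy-17*, and the median was 0.24 (-0.03 without untreated replicate 2 to 0.62 without auxin-treated replicate 1). Of 13 intestine markers 2 were nominally higher, with a median of 0.30 (0.15 to 0.48), and none was without untreated replicate 2. They were *ges-1*, a gut esterase, at 43.9, 78.7 and 70.1 FPKM with auxin and 55.2, 18.97 and 49.6 FPKM without it, and *erm-1*, which links the apical membrane to actin, at 181.0, 176.0 and 167.1 FPKM with auxin and 115.0, 98.4 and 171.1 FPKM without it. The summed level of the 15 intestine markers was 9283 to 10680 FPKM in treated and 6000 to 10450 FPKM in untreated libraries, and was lowest in untreated replicate 2. None of 19 germline (median 0.21, and 0.03 without untreated replicate 1), 12 body muscle (median -0.02, and 0.16 without untreated replicate 3), 18 neuron (median 0.15, between 0.05 and 0.17 with 1 library left out) and 12 epidermis markers (median 0.22, between 0.11 and 0.46) was nominally different. Summed levels were 254.3 to 278.5 FPKM in treated and 183.3 to 294.7 FPKM in untreated libraries for the 23 germline genes, 10310 to 11610 and 9580 to 12980 FPKM for the 16 muscle genes, 1479 to 1545 and 1295 to 1537 FPKM for the 20 neuron genes, and 1141 to 2126 and 1086 to 1725 FPKM for the 14 epidermis genes, treated before untreated in each. For every tissue the ranges overlapped. Between 3 and 5 muscle genes, and between 1 and 4 genes of each other tissue list, were listed at 0 in a library. Of the 31 major sperm protein genes 4 were tested, with none nominally different. The part of stage and tissue makeup in the values of *cth-1*, *argk-1* and the P450 genes was not tested.

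The largest nominally higher genes held many zeros. The 10 with the largest positive log2 fold change, among those with no overlap and a mean of at least 5 FPKM over the 6 libraries, were *dnj-4*, *nhr-259*, K03B4.4, F25E5.5, F54D8.10, *clec-169*, Y32H12A.7, *hecd-1*, C09B8.4 and C18D11.6, and every one was listed at 0 in at least 1 untreated library. *dnj-4*, a DnaJ-domain gene, lay at 20.96, 19.7 and 15.3 FPKM with auxin and was listed at 0 in all 3 untreated libraries. *clec-169*, a C-type lectin gene, lay at 2.23, 29.8 and 27.3 FPKM with auxin and at 0, 0 and 1.14 FPKM without it (adjusted p = 0.776). Of the 354 nominally higher genes 126 were listed at 0 in untreated replicate 1, 70 in untreated replicate 2 and 74 in untreated replicate 3. At least 1 of the 6 libraries listed 144 of them at 0. Of all 13309 tested genes, 1476, 827 and 932 were at 0 in these untreated libraries, and 2396 in at least 1 of the 6. Of the 218 nominally lower genes, 34, 52 and 33 were at 0 in treated replicates 1, 2 and 3, beside 748, 858 and 667 of all tested genes. At least 1 of the 6 libraries listed 57 of these lower genes at 0. Among the 10913 tested genes that were never listed at 0 in these libraries, 210 were nominally higher and 161 lower.

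The 10 genes with the largest negative log2 fold change under the same rule were *dhs-19*, *max-1*, T18D3.5, W01D2.6, Y75B8A.23, F21C10.11, F32E10.8, Y110A2AL.3, Y59A8B.25 and ZC449.8. *max-1*, which acts in motor axon guidance, lay at 0, 0 and 4.00 FPKM with auxin and at 12.8, 17.01 and 5.55 FPKM without it. F21C10.11 lay at 0.727, 2.61 and 8.05 FPKM with auxin and at 45.3, 21.3 and 32.4 FPKM without it. F32E10.8 lay at 0.593, 0.349 and 1.73 FPKM with auxin and at 15.8, 7.10 and 8.18 FPKM without it. *max-1*, W01D2.6, Y75B8A.23, Y110A2AL.3 and Y59A8B.25 were listed at 0 in at least 1 treated library. That all 3 treated libraries lay below the untreated ones in each of the 10 was set by the rule that chose them. None of the 10 passed limma's test (adjusted p of 0.579 for *dhs-19* and from 0.984 to 1 for the others).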

How the data were processed

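Reads of 33 poly(A) libraries from whole L3 larvae were trimmed with CutAdapt 2.3 by the authors, checked with FastQC 0.11.8 and quantified on WBcel235 with Salmon 1.9.0. The authors deposited FPKM for 21975 genes, and how FPKM was made from Salmon estimates is not given in the sources used here. Their DESeq2 1.42.0 results were not used. Conditions came from the labels. With R 4.3.3 and limma 3.58.1, log2(FPKM + 0.1) of genes averaging 1 FPKM or more was fitted with 11 condition means and a trended prior variance, with Benjamini-Hochberg adjustment over all genes tested (threshold 0.05). The added 0.1 understates fold changes of low genes, whereas isolated values of 0 in expressed genes give large ones. Depth was estimated from the lowest FPKM steps of 3742 genes with 1 transcript, and is approximate because Salmon assigns fractions. Symbols were matched for 19860 genes. The 42 gene classes and the comparison were chosen with earlier results of these data known. Genes were named if they passed the test, had a nominal p in a class (up to 3 by p), were among the 10 largest nominal differences in each direction without overlap, belonged to transsulfuration, or checked the labels, and other genes named with values were chosen after their values were seen. The procedure was tested on simulated data with normal noise around the gene means, which does not reproduce isolated values of 0 in expressed genes. Alternatives were other pseudocounts, filters, scalings, a replicate block, fewer libraries and leaving out each library. Python 3.11.15 was used for figures.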

Additional observations from a re-analysis of the deposited data

How the results depend on the processing

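Precision is limited by 3 libraries a group, by values listed at 0 in well-expressed genes and by the spread shared over all conditions, on which the call for *cth-1* in *cec-4* larvae depends. Fitting only the libraries compared gave 0 genes in *cec-4*, 0 in the average, 1 in the difference between strains and 0 classes with a called member. Without a filter on FPKM, 2 genes were called in *dpy-27::AID* larvae. Leaving out each library in turn gave 0 to 5 genes in *cec-4* larvae, 0 to 28 in *dpy-27::AID* larvae (28 without untreated replicate 3), 0 to 4 in the difference, 1 to 4 in the average, and 0 to 2 classes with a called member. In *cec-4* larvae the genes called beside *cth-1* were *argk-1*, *hrg-3* and *clec-206* without auxin-treated replicate 1, and *argk-1*, *elp-1*, *klp-11* and *ztf-22* without untreated replicate 2. F49E2.5 was called in place of *cth-1* without untreated replicate 3. *hrg-3*, a heme transport gene, was lower by these fits, with log2 fold changes of -5.98 and, without both replicates numbered 1, -6.15.

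The settings chosen after seeing the data gave 5 genes and 3 classes without both *cec-4* libraries numbered 1, and 1 gene in the average without the 2 wild type libraries with high FPKM sums. Scaling to equal FPKM sums and testing only genes above 0 in all 33 libraries kept *cth-1*. With a replicate block, 1 gene was called in *cec-4* larvae, 0 in *dpy-27::AID* larvae, 1 in the difference, 2 in the average and 1 class. The numbers were not taken as pairs. In *cec-4* larvae, libraries of the same number did not deviate together (correlations of -0.043, -0.020 and 0.024). In *dpy-27::AID* larvae the correlations were -0.009, 0.034 and 0.14. The last, between both replicates 3, was the highest of that strain, beside -0.118 to 0.0895 between libraries of different numbers. Whether both *dpy-27::AID* replicates 3 share a batch was not tested. None of the 74 fold changes recomputed for named genes changed sign in these fits. Most of these genes were named for a difference between these same libraries, so their constant sign was largely fixed by that choice and is no sign of robustness. The median of 16 of 40 gene classes changed sign when 1 *cec-4* library was left out. For these and the other changes the cause was not tested.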
